A study of Mus musculus with 84 samples.

Results

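Lung metastases that carried the Wnt-1 or the Neu oncogene were compared on spotted mouse cDNA arrays of 15360 clones. They were chosen by their titles: 10 samples titled WntM and 5 titled NeuM, 15 of the 84 samples of the series and 15 of its 65 arrays of this type. The WntM lesions grew in MMTV-Wnt-1 transgenic mice. Lesions 53, 56 and 61 of the NeuM group grew in MMTV-Neu transgenic mice, and lesions 53E and 56E grew in nontransgenic hosts after Neu primary tumor cells had been injected into the tail vein, so these 2 had not spread from a mammary gland of their host. Both transgenes are driven by the long terminal repeat of the mouse mammary tumor virus, which is active mainly in mammary epithelium, and the Neu transgene is the wild-type rat cDNA. The Neu mice were pure FVB, and the Wnt-1 mice were a mixture of FVB, SJL and C57BL/6, so oncogene and genetic background cannot be told apart in any value below. The ages of the mice with metastases are not given in the sources used here. For the primary tumors, the study's age range of Wnt-1 mice (both array types pooled) started and ended earlier than that of Neu mice. Age was not adjusted for. Primary mammary tumors of the same genotypes on the same arrays, 23 titled WntT and 12 titled NeuT, served for comparison. Each value is the log2 ratio of the Cy5-labeled sample to a Cy3-labeled reference RNA pooled from several mouse organs, so 0 means the level of the reference. The study analyzed the primary tumors. Here the question was which oncogene-specific genes remained different in the lung lesions.

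Wnt-1 is a secreted ligand that binds Frizzled receptors and stabilizes beta-catenin, which then activates target genes together with TCF and LEF factors. In the mammary gland Wnt signaling acts on progenitor cells, and Wnt-1-induced tumors hold both luminal and myoepithelial cells. Neu is the rat form of the receptor tyrosine kinase ErbB2, which signals through Ras, MAPK and PI3K, and Neu-induced tumors are made largely of luminal cells. A metastasis in the lung is surrounded by alveolar and airway epithelium, whose own products (surfactant proteins and secretoglobins) mark how much lung RNA a sample holds.

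Array medians lay between -0.144 and -0.0084 in WntM and between -0.0788 and -0.0208 in NeuM. The SD of the log2 ratios of an array was 0.765 to 1.47 in WntM and 0.853 to 1.11 in NeuM, and WntM arrays 19, 50 and 52 had the widest spread (1.32, 1.47 and 1.42). No clone carried the symbol of either transgene alone, so the labels could not be checked on the transgenes themselves. Nothing in the labels says whether 2 samples of 1 group came from separate mice, so p-values measure the spread between these samples, and precision is limited by how many arrays there were.

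The lesions of the 2 oncogenes stood well apart. In limma, 3320 of 15360 clones differed between WntM and NeuM (21.6% of clones tested, Benjamini-Hochberg adjusted p under 0.05), 1604 of them higher (10.4%) and 1716 lower (11.2%) in WntM. A difference of at least 2-fold was found in 842 clones (5.48%), 393 higher (2.56%) and 449 lower (2.92%). The median size of the called differences was 0.65 on the log2 scale (1.57-fold), and the median over all clones was -0.04. For 618 clones (4.02%) all 10 WntM arrays lay above every NeuM array, and for 726 (4.73%) all lay below. The split into WntM and NeuM accounted for 37.97% of the squared distances among the 15 arrays (distance 1 minus the Pearson correlation over 15357 clones). That share was the highest of all possible splits into 10 and 5 arrays (exact permutation test, p = 0.000333, the smallest these splits can give), against 7.14% for the average split. Pairs of NeuM arrays correlated with a median r of 0.81 (10 pairs), pairs of WntM arrays with 0.67 (45 pairs), and pairs of 1 WntM and 1 NeuM array with 0.60 (50 pairs).

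Most differences of the metastases were also differences of the primary tumors. Among the clones called higher in WntM, 84.1% were higher in WntT than in NeuT, and among those called lower 88.2% were lower. In the tumors, with 35 arrays, 6692 clones were called (43.6%), 3332 higher and 3360 lower in WntT. Of the 3332, 1349 (40.5%) were called higher in the metastases and 93.4% had the same sign. Of the 3360, 1513 (45%) were called lower and 94.4% had the same sign. The share that carried over rose with the fold in the tumors, as the power of the test does. In simulated data with independent noise, 67, 67 and 66 of 15360 clones were changed by 1.5-fold, 2-fold and 4-fold. The metastasis fit recovered 35.8%, 70.1% and 89.4% of them. Fewer clones changed there than were called in the metastases, so these shares are not the power of the real fit. They too rose with the fold, and the rise in carry-over is not read as a difference in persistence. Tumor differences under 1.5-fold were called in the same direction in 25.6% (higher) and 29.5% (lower) of clones, and differences of at least 4-fold in 87.9% of 99 and 83.3% of 120 clones. In the opposite direction 9 clones were called, all lower in WntT and higher in WntM. Metastases and tumors share no array, but the labels leave unsaid whether a metastasis and a tumor came from 1 mouse.

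**Figure D1:**
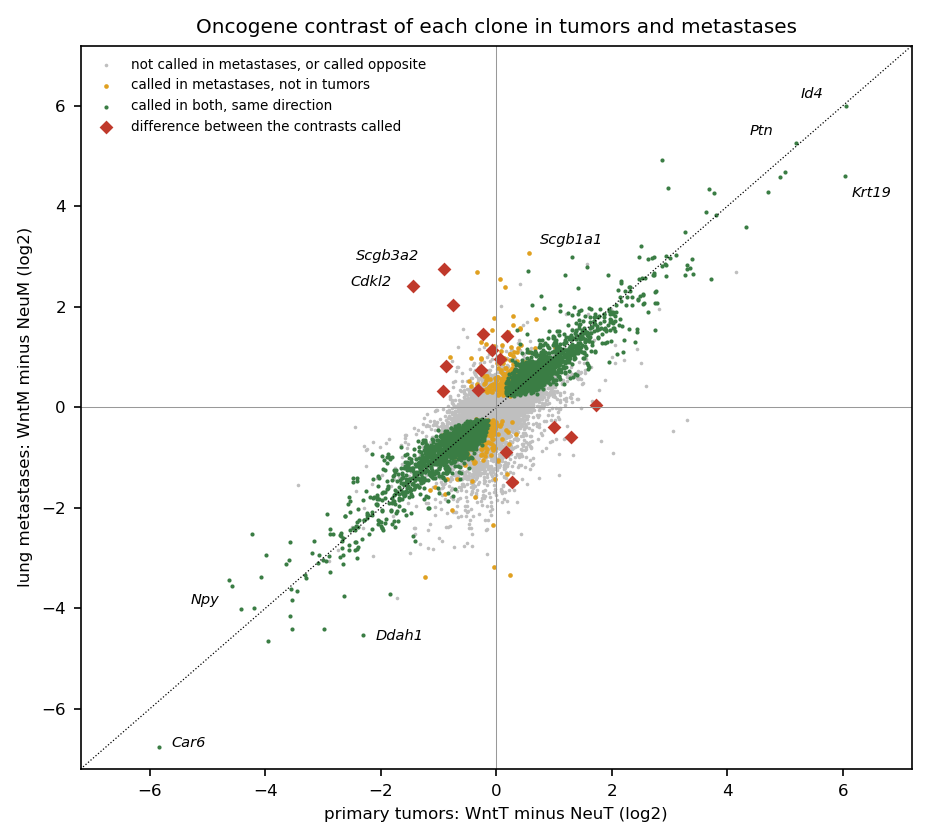
Log2 difference of each of 15360 clones between Wnt-1 and Neu primary tumors (x axis, WntT minus NeuT) and lung metastases (y axis, WntM minus NeuM). Green points were called in both with the same sign, orange points in the metastases only, red diamonds are the 16 clones whose 2 differences differed from each other, and the dotted line marks equal differences. Id4, Ptn and Car6 lie at the far ends near that line, and Scgb3a2 and Cdkl2 lie on opposite sides of 0 on the 2 axes.

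Id4, an inhibitor of basic helix-loop-helix transcription factors, had the largest higher value of all clones in WntM. Its log2 ratio in the 10 WntM arrays had a lowest value of 3.22, a median of 3.64 and a highest of 4.10, and in NeuM it was -2.48 (53E), -2.30 (53), -1.88 (56), -2.49 (56E) and -2.47 (61). The groups were more than 5 log2 units apart on every array, and the 2 tail-vein lesions sat among the other NeuM lesions. The difference was 5.99 ± 0.14 (SE, 63.6-fold, limma adjusted p = 7.92e-13), next to 6.07 in the tumors. Ptn encodes pleiotrophin, a heparin-binding growth factor. It was 3.65, 3.89 and 4.32 (lowest, median, highest) in WntM and -2.26 (53E), -1.17 (53), -0.85 (56), -1.44 (56E) and -0.94 (61) in NeuM. Every WntM array was far above every NeuM array, and 53E was the lowest of all. The difference was 5.25 ± 0.19 (SE, 38.1-fold, limma adjusted p = 1.41e-10) in the metastases and 5.19 in the tumors.

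Keratin 19 (Krt19), an intermediate filament of simple epithelium, was 1.40, 1.87 and 2.40 in WntM and -3.53 (53E), -2.71 (53), -3.03 (56), -3.12 (56E) and -1.41 (61) in NeuM. Lesion 61 was the highest of the NeuM lesions and still lay below every WntM lesion. The difference of 4.59 ± 0.28 (SE, 24.1-fold, limma adjusted p = 2.81e-08) stood beside 6.04 in the tumors, and the test of the 2 differences against each other did not reach the threshold (adjusted p = 0.22). A list of 31 genes was drawn from the text and supplements of the study, for several of its comparisons and not only that of the oncogenes, and with earlier results known. Of these genes 25 could be measured by a clone with their symbol alone, and with clones averaged per gene (23.4% of 7766 genes called) 17 were higher and 3 lower in WntM, with a median of 1.12, beside 872 (11.2%) and 947 (12.2%) of all genes and a median of -0.05. The study picked them on arrays of this series, so this count is not independent evidence of their direction.

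**Figure D2:**
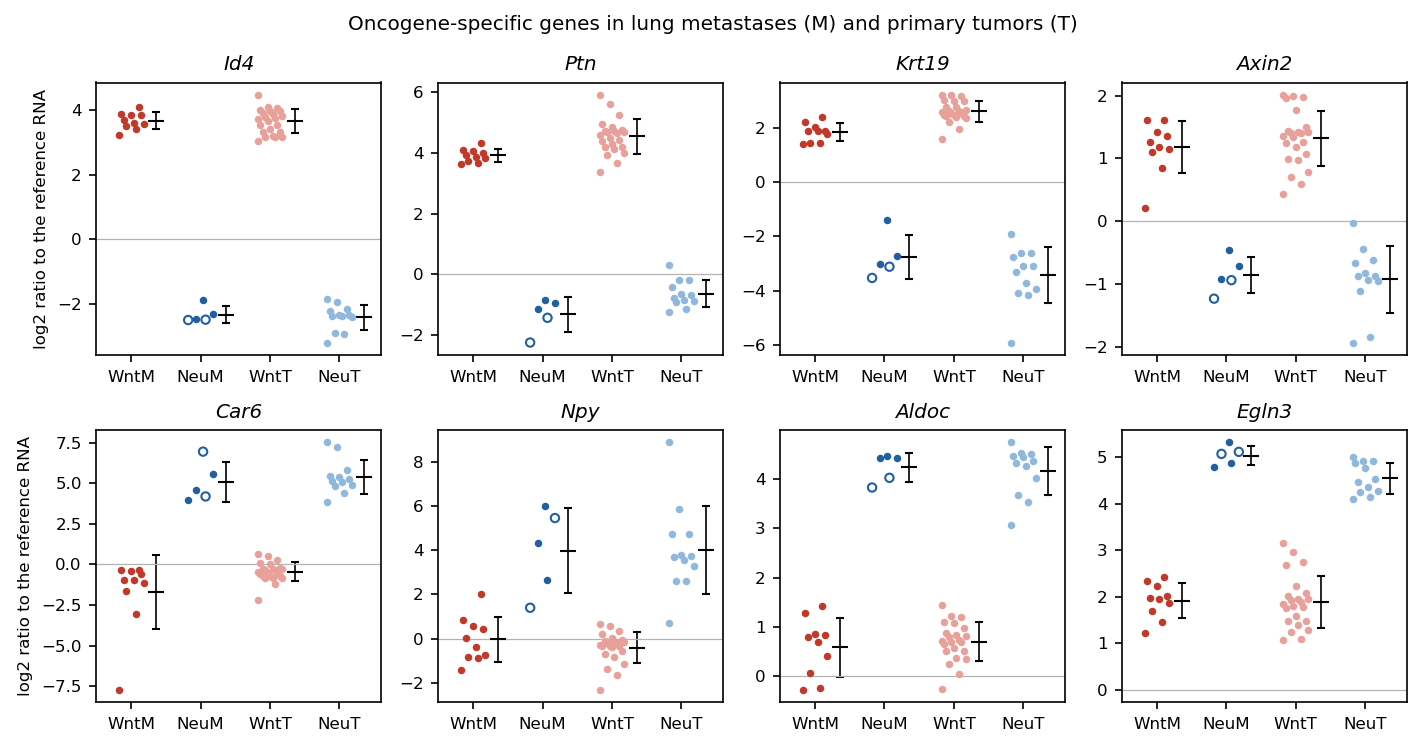
Log2 ratio to the reference RNA of 8 genes in every array of lung metastases (WntM, 10; NeuM, 5) and primary tumors (WntT, 23; NeuT, 12). Points are arrays, open circles are the 2 tail-vein lesions, and the black marks give the mean ± SD of each group. In all panels but that of Npy the WntM points and the NeuM points occupy separate ranges.

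Further genes among the 10 of largest positive difference rested on 1 clone each. A clone of Fermt3 (kindlin-3, an integrin activator) was 24.1-fold, a clone of Ikbip 19.4-fold and a clone of Amotl1 (angiomotin-like 1) 20.3-fold higher in WntM, with all 10 WntM arrays above every NeuM array. Other clones of the same symbols did not show this: the 3 other clones of Fermt3 and of Amotl1 and the second clone of Ikbip had differences between -0.10 and 0.39, none of which passed the test. A clone annotated 5033421C21Rik was 25.7-fold higher. Ripor2 was 20.7-fold higher in 1 clone, with NeuM 53E at -8.38 against -2.51 to -1.37 in the other NeuM lesions, and 1.03-fold in its second clone (adjusted p = 0.77).

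Wnt targets were represented by 14 measured genes, of which 5 were higher in WntM, none lower, and 9 did not pass the test, a share of 35.7% against 23.4% of all genes. The list median was 0.52 against -0.05 over all genes (0.81 with quantile normalization between arrays, 0.89 without the 3 arrays of SD over 1.3). In the primary tumors, where 45.8% of genes were called, 10 of the 14 were higher, with a median of 0.98. Axin2, a target of beta-catenin that in turn promotes its destruction, was 0.22, 1.23 and 1.62 in WntM and -1.23 (53E), -0.92 (53), -0.46 (56), -0.94 (56E) and -0.72 (61) in NeuM. All NeuM lesions were below the reference RNA and all WntM lesions above it. The difference was 2.03 ± 0.20 (SE, 4.10-fold, limma adjusted p = 4.27e-06) in the metastases and 2.24 in the tumors. Ccnd1, which encodes cyclin D1, was 2.15, 2.66 and 3.02 in WntM and 1.296 (53E), 1.89 (53), 1.47 (56), 1.93 (56E) and 1.17 (61) in NeuM, a difference of 1.12 ± 0.16 (SE, limma adjusted p = 0.000175). It was above the reference in both groups, and the groups did not overlap. Myc was 0.91 ± 0.16 (SE) higher, with all 10 WntM arrays above every NeuM array and a difference of 0.97 in the tumors. Tnfrsf19 (TROY), a receptor of the tumor necrosis factor family, was higher in WntM in all 3 of its clones, by 2.32, 0.54 and 0.48. Ngfr, the low-affinity neurotrophin receptor, was the fifth called gene, with 1.73 in 1 clone and 0.40 (not called) in the other. Wnt5a, Twist1, Apcdd1, Cd44 and Ccn5 were higher in the tumors but were not called in the metastases (log2 differences of 0.94, 0.53, 0.34, 0.45 and 0.51).

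The promoter of Tnfrsf19 is shown because it was the only one of the 8 Wnt targets with a promoter sequence at hand that held the TCF and LEF core motif CTTTGAT or its reverse complement ATCAAAG. Sequences run 5′ to 3′ across the transcription start (RefSeq, GRCm38.p6), and capitals mark the motif.
Tnfrsf19 (chr14:61037938-61038237, minus strand): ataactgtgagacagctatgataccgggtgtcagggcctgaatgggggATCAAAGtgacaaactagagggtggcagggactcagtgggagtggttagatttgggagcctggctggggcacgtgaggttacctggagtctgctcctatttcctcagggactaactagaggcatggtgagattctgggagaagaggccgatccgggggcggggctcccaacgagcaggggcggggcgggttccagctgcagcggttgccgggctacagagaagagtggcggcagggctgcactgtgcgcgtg
On either strand this motif was present in 3.73% of the 32851 promoter windows of that table. Such a match describes the letters only.

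Other parts of the Wnt pathway had 30% (ligands and receptors), 35.7% (inhibitors) and 33.3% (transducers) of their genes called, against 23.4% of all genes. Of 10 ligands and receptors, Fzd1 (a Frizzled receptor; 2 clones, 1.85 and 0.82) and Wnt5b (1.55 ± 0.31, SE) were higher and Fzd9 (-0.68 ± 0.20, SE) was lower in WntM, a call that was lost without NeuM lesion 56, 56E or 61 (adjusted p = 0.0598, 0.0545 and 0.0658). Of 14 secreted or intracellular inhibitors, Axin2, Dkk3 (1.55), Nkd2 (0.74) and Frzb (0.39) were higher and the corepressor Tle4 (-1.10) was lower, but Tle4 was -0.55 with quantile normalization (adjusted p = 0.146). Of 9 transducers, Tcf7l1 (0.67) and Frat1 (0.62) were higher, and Jup (plakoglobin, -0.34) was lower in the average per gene. The ErbB pathway list had 11 measured genes, of which Erbb3, the partner receptor of ErbB2, was lower (-0.54), Grb7, an adaptor that binds ErbB2, was lower (-0.41), and Shc1, an adaptor upstream of Ras, was higher (0.30). Of this list 27.3% of genes were called, and its median was 0.03. The calls of Grb7 and Shc1 were near the threshold. That of Grb7 was lost with quantile normalization (adjusted p = 0.157), without the tail-vein lesions (adjusted p = 0.111) and without any 1 of NeuM 53E, 53 and 56 or WntM 18, 49, 52 and 62, and that of the leading clone of Shc1 (0.31) without NeuM 53, 56 or 61 (adjusted p = 0.0653, 0.058 and 0.0571). Of the 8 Ras and MAPK feedback genes only Ccnd1 was called.

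Myoepithelial genes stayed higher in the Wnt-1 lesions. Of 10 measured genes 6 were higher and none lower (60% called, against 23.4% of all genes). The median was 1.02, and the same list had a median of 1.04 in the tumors. Cnn1 (calponin 1, an actin-binding protein of smooth muscle) was 1.09, 1.83 and 2.68 in WntM and -2.82 (53E), -1.84 (53), -2.84 (56), -2.76 (56E) and -2.16 (61) in NeuM. The groups were separated by almost 3 log2 units. The difference was 4.27 ± 0.26 (SE, 19.3-fold, limma adjusted p = 2.81e-08), with 3.78 in the tumors. Tgfb1i1 (Hic-5, a focal adhesion protein) was 2.80 and 2.83 higher in its 2 clones, Myh11 (smooth muscle myosin) 1.86, Oxtr (oxytocin receptor) 1.43 and Mylk (myosin light chain kinase) 1.13. P-cadherin (Cdh3) was 1.90 higher in 1 clone and -0.08 in the other. In bulk samples such as these, fewer cells of a type and less RNA per cell cannot be told apart. Of 13 muscle genes none passed the test in limma (4 had an unadjusted p under 0.05). Eno3 and Actn3, of skeletal muscle, had outlying low values on WntM array 50 (-3.79 and -6.59), and without that array both were called lower (-0.98, adjusted p = 0.00104, and -1.67, adjusted p = 0.0437).

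Genes of stratified and keratinizing epithelium were higher in 4 of 11 cases (36.4% called, against 23.4% of all genes), with a median of 0.85. They were Trim29 (3.83 and 3.50 in its 2 clones, all WntM arrays above all NeuM arrays), Krt6a (2.99 ± 0.53, SE), Sprr1a (2.64) and Sfn (0.85 ± 0.10, SE). Krt6a varied widely among the Wnt-1 lesions, from 0.50 to 3.86. Matrix and fibroblast genes were higher in 6 of 16 cases and lower in none (37.5% called), with a median of 0.60 against 1.00 in the tumors. Col14a1 was 2.98 and 2.84 higher in its 2 clones, Vcan (versican) 2.57, Col4a1 2.22, Col6a1 1.08, Nid1 (nidogen 1) 1.04 and Col5a2 0.57. Both Col4a1 and Nid1 encode parts of basement membranes.

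Carbonic anhydrase 6 (Car6), a secreted enzyme, had the largest negative difference of all clones. It was -7.73, -0.96 and -0.32 in WntM and 6.94 (53E), 4.58 (53), 3.96 (56), 4.18 (56E) and 5.59 (61) in NeuM. The lowest WntM value was that of array 50, far below the other 9, and even the highest WntM lesion was more than 4 log2 units below the lowest NeuM lesion. The difference was -6.76 ± 1.02 (SE, 109-fold lower, limma adjusted p = 0.000236), with -5.85 in the tumors. Neuropeptide Y (Npy) was -1.41, -0.17 and 2.03 in WntM and 5.46 (53E), 4.34 (53), 2.66 (56), 1.40 (56E) and 5.99 (61) in NeuM. Tail-vein lesion 56E was the lowest NeuM lesion and lay below 1 WntM lesion, so the groups overlapped. The difference was -4.004 ± 0.70 (SE, limma adjusted p = 0.000759), with -4.42 in the tumors.

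Milk and lactation genes were split. Of 16 measured genes 6 were lower and 2 higher in WntM (50% called, against 23.4% of all genes). The median was -0.23 (0.14 with quantile normalization between arrays, -0.53 without the tail-vein lesions). Kappa-casein (Csn3) was -4.10, -1.89 and -0.95 in WntM and 2.18 (53E), 2.30 (53), 1.32 (56), 0.54 (56E) and 2.94 (61) in NeuM. Every Neu lesion was above the reference RNA, which itself holds lactating gland, and every Wnt-1 lesion was below it. The difference was -3.99 ± 0.50 (SE, limma adjusted p = 4.19e-05). Socs2, a suppressor of growth hormone and prolactin signaling, was lower in both clones (-3.55 and -1.47), and Lcn2 (lipocalin 2, -2.35), Wfdc18 (-1.06), Plin2 (-1.27) and Xdh (xanthine dehydrogenase, -0.77) were lower too. Btn1a1 (butyrophilin, 0.73) and Mfge8 (0.34) were higher. Other genes of the largest negative differences were Slc25a34 (a mitochondrial carrier, -4.65), Ddah1 (-4.54; a second clone at -2.45 did not pass the test, adjusted p = 0.0767), Trf (transferrin, -4.15), A2m (alpha-2-macroglobulin, -3.76) and Col9a1 (-3.83 in 1 clone and -0.11 in the other, adjusted p = 0.487). Npnt (nephronectin, -3.43), Tmeff2 (-3.37), Akap12 (-3.05 and -2.67), Ncald (neurocalcin delta, -3.12 and -2.52) and Tspan8 (-2.95), which were among the 10 most negative genes of the tumors, were lower in the metastases as well.

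Glycolysis and hypoxia-responsive genes were lower in the Wnt-1 lesions in 7 of 11 cases and higher in none, with a median of -1.30. The share called was 63.6%, against 23.4% of all genes. The tumors, where 45.8% of all genes were called, gave 8 of 11 lower and a median of -0.93. The promoters of 4 genes are shown because they belong to called genes of this list and hold ACGTG or its reverse complement CACGT, the core of the hypoxia response element, in capitals (same table, build and window as above).
Egln3 (chr12:54203825-54204124, minus strand): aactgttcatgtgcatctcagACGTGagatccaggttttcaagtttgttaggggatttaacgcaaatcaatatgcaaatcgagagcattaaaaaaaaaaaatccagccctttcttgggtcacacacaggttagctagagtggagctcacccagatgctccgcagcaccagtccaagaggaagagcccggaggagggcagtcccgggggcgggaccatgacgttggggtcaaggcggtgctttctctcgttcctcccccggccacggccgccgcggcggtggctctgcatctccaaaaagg
Aldoc (chr11:78322823-78323122, plus strand): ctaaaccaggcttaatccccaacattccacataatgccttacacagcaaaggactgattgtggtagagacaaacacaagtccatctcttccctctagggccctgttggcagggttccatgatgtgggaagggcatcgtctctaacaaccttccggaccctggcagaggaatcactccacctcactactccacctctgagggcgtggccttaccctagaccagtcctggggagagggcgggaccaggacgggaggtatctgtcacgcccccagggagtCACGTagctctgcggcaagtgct
Aldoa (chr7:126799205-126799504, minus strand): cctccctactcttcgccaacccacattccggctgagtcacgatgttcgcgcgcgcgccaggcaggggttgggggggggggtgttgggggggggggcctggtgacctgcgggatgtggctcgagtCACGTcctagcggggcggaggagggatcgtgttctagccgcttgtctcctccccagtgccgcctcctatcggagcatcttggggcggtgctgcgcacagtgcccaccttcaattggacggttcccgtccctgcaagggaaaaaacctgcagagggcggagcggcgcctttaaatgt
Bnip3 (chr7:138909457-138909756, minus strand): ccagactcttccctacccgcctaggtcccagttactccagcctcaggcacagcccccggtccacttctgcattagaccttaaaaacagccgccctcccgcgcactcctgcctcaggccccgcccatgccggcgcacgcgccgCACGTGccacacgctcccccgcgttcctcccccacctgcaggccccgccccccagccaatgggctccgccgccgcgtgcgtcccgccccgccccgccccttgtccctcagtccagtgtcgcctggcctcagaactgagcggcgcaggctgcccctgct
The motif was found in 5 of the 7 called genes (these 4 and Hk1), in 7 of the 10 measured genes with a promoter sequence at hand, and in 21.8% of all 27025 genes of the table. Counted from the start, it lay at -229 in Egln3, -126 in Aldoa, -108 in Bnip3 and 27 in Aldoc. Genes with several windows counted when any of them held it, and no binding was measured.

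Among these genes Egln3, a prolyl hydroxylase that marks hypoxia-inducible factors for destruction, was 1.21, 1.96 and 2.42 in WntM and 5.11 (53E), 5.31 (53), 4.88 (56), 5.07 (56E) and 4.79 (61) in NeuM. Both groups were above the reference RNA, and the 5 Neu lesions lay close together. The difference was -3.11 ± 0.18 (SE, 8.65-fold lower, limma adjusted p = 2.06e-08), with -2.66 in the tumors. Aldolase C (Aldoc) was -0.28, 0.75 and 1.43 in WntM and 4.02 (53E), 4.42 (53), 4.43 (56), 3.82 (56E) and 4.46 (61) in NeuM, a difference of -3.65 ± 0.27 (SE, 12.6-fold lower). Aldolase A (Aldoa) was -2.25 ± 0.14 (SE), hexokinase 1 (Hk1) -1.78, phosphofructokinase (Pfkl) -0.71 and carbonic anhydrase 12 (Car12) -2.84. No WntM array of Egln3, Aldoc or Aldoa reached the lowest NeuM array. Bnip3, a mitophagy receptor, was lower by -1.30 ± 0.23 (SE, limma adjusted p = 0.000903). Vegfa, Pdk1, Egln1 and Ndrg1 did not pass the test (-0.21, 0.11, -0.15 and -0.33).

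Interferon-induced genes were lower in WntM in 8 of 22 cases and higher in 3 (50% called, against 23.4% of all genes). Their median was -0.36, and -0.56 in the tumors. Ifi27 was lower in both clones (-1.82 and -1.42), Oas1a, a sensor of double-stranded RNA, by -2.17 and -0.65, and Iigp1, an immunity-related GTPase, by -2.09, -1.78 and -1.84. Oas1a and Iigp1 had outlying low values on WntM array 19 (-1.70 and -3.99). Irf8 (0.94), Ifitm3 (0.90) and Gbp3 (0.27) were higher. Of 9 genes of antigen presentation (33.3% called), the class II genes H2-Eb1 (0.85 over 4 clones) and Cd74 (0.96) were higher and beta-2-microglobulin (B2m, -1.22) was lower. Cd74 was not called without lesion 56E (0.83, adjusted p = 0.0679), without both tail-vein lesions (0.79, adjusted p = 0.151) or with the mean of lung genes as a covariate (0.36, adjusted p = 0.593). Luminal genes moved in both directions, 7 higher and 3 lower of 15 (66.7% called), with a median of -0.05 (0.38 with quantile normalization). Beside Krt19 they included Muc1 (2.04), Wfdc2 (2.33), Mal (1.89) and E-cadherin (Cdh1, 0.92) among the higher, and Tspan8, Gata3 (a luminal transcription factor, -0.98) and Cldn4 (-0.40) among the lower.

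**Figure D3:**
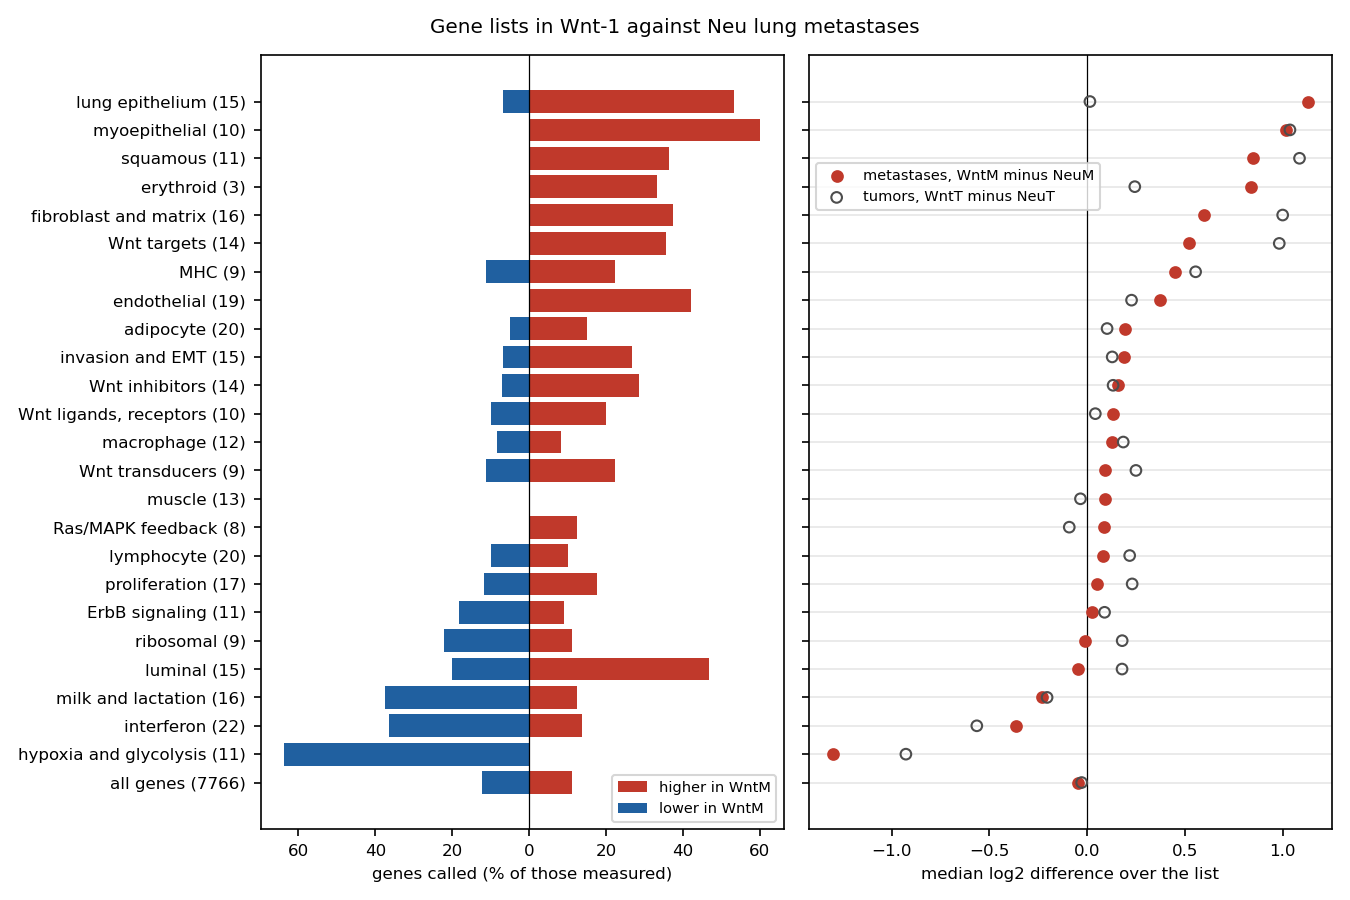
Share of the measured genes of each list called higher (red) or lower (blue) in WntM than in NeuM (left, percent, clones averaged per gene), and the median log2 difference of the list in metastases (filled) and tumors (open) (right). Numbers in brackets are measured genes. Lung epithelium has the highest median in the metastases, 1.13, and 0.01 in the tumors, and hypoxia and glycolysis the lowest in both.

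A few genes of the list drawn from the study were not called in the lesions. Gata2, a transcription factor, was -6.51, -0.08 and 2.30 in WntM and -1.997 (53E), -1.51 (53), -2.14 (56), -2.01 (56E) and -1.29 (61) in NeuM. Array 52 had the lowest value of all and 9 of 10 WntM arrays lay above every NeuM array. The difference of 1.34 ± 1.01 (SE) did not pass the test (limma adjusted p = 0.382). Without array 52 it was 2.02 (adjusted p = 0.00797), and without the 3 arrays of SD over 1.3 it was 2.24 (adjusted p = 0.00545). Wnt5a was -0.12, 1.53 and 4.31 in WntM and -0.02 (53E), 0.60 (53), 0.73 (56), 1.48 (56E) and 0.70 (61) in NeuM, and the wide range of the Wnt-1 lesions enclosed the Neu lesions. Gfra1 (0.68 ± 0.61, SE), Tnc (tenascin C, 0.21 ± 0.42, SE) and Kit (-0.30 ± 0.27, SE) were not called, and neither was Anks1b (2.69 ± 1.02, SE; adjusted p = 0.0756), which had been 4.15 higher in WntT. Without those 3 arrays Gfra1 (1.08, adjusted p = 0.0275), Wnt5a (1.42, adjusted p = 0.047) and Anks1b (3.42, adjusted p = 0.0153) were called higher. Leaving out 1 array was enough for Gfra1 (array 19: 1.09, adjusted p = 0.0157) and Anks1b (array 50: 3.07, adjusted p = 0.0302, or array 52: adjusted p = 0.0419), and Anks1b was also called with quantile normalization (3.26, adjusted p = 0.0365). For none of these 6 genes did the metastasis and the tumor difference differ from each other in the test (adjusted p of 0.708 to 0.967). Fzd7, Postn, Igfbp7 and Mmp15 were not analysed here, since no clone carried their symbol alone.

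The difference between the metastasis contrast and the tumor contrast was called for 16 clones (0.104%), 11 higher (0.0716%) and 5 lower (0.0326%) in the metastases, and 1153 clones (7.51%) had an unadjusted p under 0.05. Scgb3a2, a secretoglobin of airway epithelium, was -1.74, 1.43 and 4.04 in WntM and -1.41 (53E), -1.08 (53), -1.55 (56), -2.36 (56E) and 0.01 (61) in NeuM. The groups overlapped, with 8 of 10 WntM arrays above every NeuM array. It was 2.76 ± 0.80 (SE, limma adjusted p = 0.0224) higher in WntM and 0.91 lower in WntT, and these contrasts differed by 3.67 ± 0.61 (SE, limma adjusted p = 0.000803). Without the tail-vein lesions the metastasis difference was 2.35 (adjusted p = 0.145), without lesion 56E alone 2.49 (adjusted p = 0.0614) and without lesion 56 alone 2.69 (adjusted p = 0.0506). Cdkl2, a kinase related to cyclin-dependent kinases, was 2.41 in metastases and -1.44 in tumors. A clone of the histone gene H2aj was 2.03 and -0.75 (its second clone 0.05 and -0.02). Without the tail-vein lesions the metastasis difference of that first H2aj clone was 1.60 and not called (adjusted p = 0.0765). Alas1, the first enzyme of heme synthesis, was 1.45 and -0.23 in 1 clone and 1.14 and -0.07 in another. Mettl7a1, Slc39a8, Prrg3, Pcnp, Nod1 and 1 clone of the surfactant gene Sftpb were the other clones with a higher contrast. Cactin (-0.89 in metastases, 0.18 in tumors), 1 of 3 clones of Srprb (-1.49 and 0.27) and 3 clones without a symbol had a lower contrast.

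Lung genes were higher in the Wnt-1 lesions. Of 15 measured genes of lung epithelium 8 were higher and 1 (the water channel Aqp5, -1.72) was lower in WntM (60% called, against 23.4% of all genes). The median was 1.13, beside 0.01 in the tumors. Without the tail-vein lesions the median was 0.64. The mean of these 15 genes on an array was -0.46, 0.38 and 1.00 (lowest, median, highest) in WntM and -1.15 (53E), -0.79 (53), -0.54 (56), -0.80 (56E) and 0.26 (61) in NeuM. Lesion 61 had the highest value of the Neu lesions and lay within the range of the Wnt-1 lesions. In the primary tumors the mean was lower, from -2.60 to -1.33 in WntT and from -1.94 to -1.43 in NeuT.

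Scgb1a1, the secretoglobin of club cells, was -1.42, 0.96 and 2.82 in WntM and -2.69 (53E), -2.73 (53), -3.72 (56), -3.31 (56E) and -0.04 (61) in NeuM, against medians of -6.84 in WntT and -7.45 in NeuT. Lesion 61 overlapped the Wnt-1 lesions and the other 4 lay below all of them. The difference of 3.07 ± 0.74 (SE, 8.42-fold, limma adjusted p = 0.00766) was the largest positive one among genes called in the metastases and not in the tumors. Cyp2f2, a cytochrome of club cells, was -2.17, -0.71 and 0.81 in WntM and -3.88 (53E), -3.77 (53), -3.91 (56), -4.70 (56E) and -1.39 (61) in NeuM, and again lesion 61 stood apart from the other Neu lesions. Surfactant protein C (Sftpc), the marker of type II alveolar cells, was 1.82 ± 0.58 (SE) higher in WntM, and at 2.22 NeuM lesion 61 exceeded every WntM lesion. Pon1 (paraoxonase, 2.70 ± 0.45, SE) and Ces1d (a carboxylesterase, 2.39 ± 0.44, SE) were also called in the metastases and not in the tumors (these and the next 3 were picked after their values were seen). In all, 246 clones were called higher and 203 lower in the metastases without a call in the tumors (2.84% and 2.34% of the clones not called in the tumors). On the other side were Fam161a (-1.46), 1 clone of Cpq (-2.05) and 1 of Tmem167b (-2.34), but another clone of each of the last pair was called lower in tumors and metastases alike. The difference of contrasts was not called for Scgb1a1, Pon1, Ces1d, Fam161a or the first clones of Cpq and Tmem167b (limma adjusted p of 0.108 to 0.796). That clone of Cpq had 1 NeuT array at -9.83, against a NeuT median of 0.91.

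**Figure D4:**
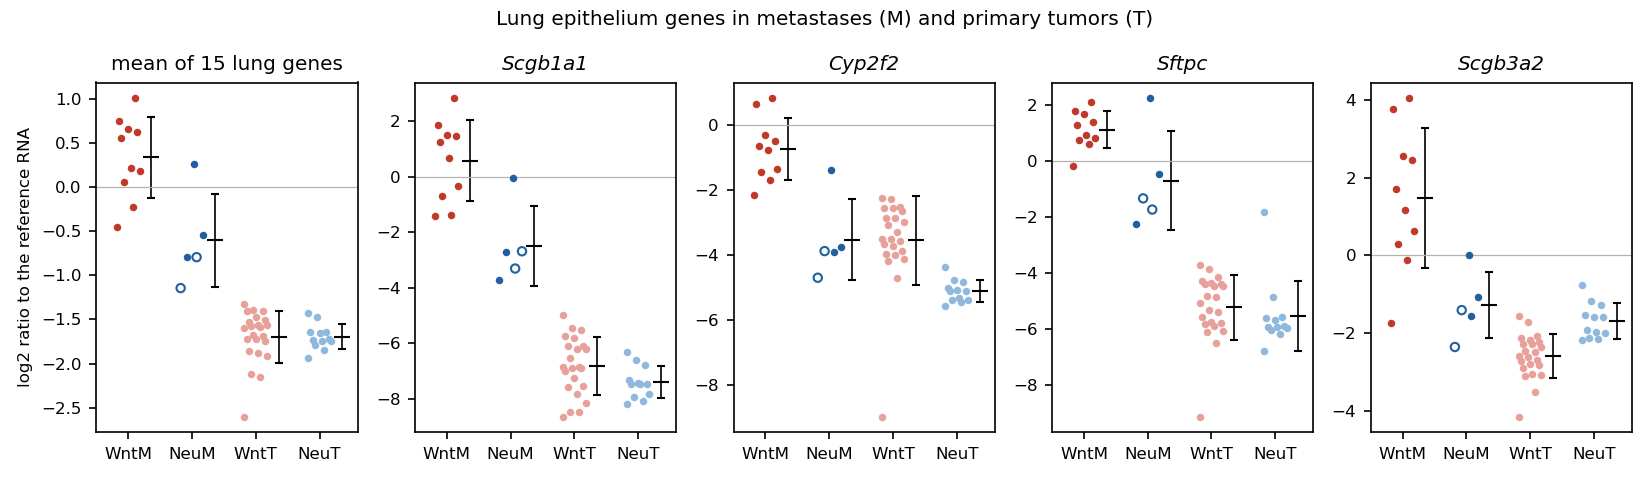
Mean log2 ratio of the 15 measured lung epithelium genes and the log2 ratios of Scgb1a1, Cyp2f2, Sftpc and Scgb3a2 in every array of lung metastases (WntM, 10; NeuM, 5) and primary tumors (WntT, 23; NeuT, 12). Points are arrays, open circles are tail-vein lesions, and black marks give mean ± SD. The mean of the 15 genes is above every primary tumor in all 15 metastases, and NeuM lesion 61 is the highest Neu lesion in each panel.

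The oncogene difference was also computed with the lung mean of each array as a covariate, an alternative added after the values were seen. Its count was 692 higher and 995 lower, against 1604 and 1716 without it. Of the clones called without it, 627 of 1604 stayed called higher and 851 of 1716 stayed called lower. The sign was kept in 1603 of the 1604 and in all 1716, with median differences of 0.57 and -0.68, against 0.63 and -0.67. Id4 (5.91), Ptn (5.07), Krt19 (4.10), Axin2 (1.99), Cnn1 (3.93), Car6 (-5.67), Csn3 (-3.74), Npy (-3.995), Aldoc (-3.43) and Egln3 (-3.16) kept their call. Scgb3a2 (0.31), Cyp2f2 (0.92), Cdkl2 (0.70), Alas1 (0.66) and H2aj (0.41) lost it. Of the 98 named genes called without the covariate, 72 kept the call and 26 lost it. Among the 26 were Apod and Stra6, from the list drawn from the study (limma adjusted p = 0.061 and 0.171 with the covariate). Ripor2, Klhl14, Dpyd and 1300017J02Rik, among the largest differences of metastases or tumors, lost it too (adjusted p = 0.0668, 0.188, 0.173 and 0.0702). So did H2-Eb1 and Jchain (adjusted p = 0.0887 and 0.144). Scgb3a2 and Cyp2f2 are themselves among the 15 genes of the lung mean, which therefore takes up part of their own difference, so nothing is read from their loss.

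Endothelial genes were higher in 8 of 19 cases and lower in none (42.1% called, against 23.4% of all genes). Their median was 0.37, and 0.23 in the tumors. Esam and VE-cadherin (Cdh5), both adhesion molecules of endothelial junctions, were 0.69 and 0.60 higher over their clones, endoglin (Eng) 1.15, and Car4, Ramp2 and Tie1, which were not called in the tumors as averages per gene, 1.05, 0.78 and 0.53. Lung tissue is rich in endothelium, and the lung mean of the arrays was higher in the same group. With that mean as a covariate the leading clones of Esam (0.85, against 1.09 without it), Cdh5 (0.76 against 0.84) and Tie1 (0.76 against 0.72) kept their call. These 3 clones do not stand for the list, and whether lung tissue contributed to the endothelial difference was not tested. Erythroid genes had a median of 0.84 over 3 genes, of which 1 (Alas2) was higher, and that call was lost without the tail-vein lesions (adjusted p = 0.0987) or without NeuM 56 or 56E alone (adjusted p = 0.0512 and 0.051). The share of genes called was 16.7% for macrophage, 20% for lymphocyte and 20% for adipocyte genes, each under the 23.4% of all genes. Macrophage genes had 1 higher (Mrc1, 0.70) and 1 lower (C1qb, -0.46) of 12, lymphocyte genes 2 and 2 of 20, and adipocyte genes 3 (Cebpa, Retn, Adipoq) and 1 (Lep) of 20. Mrc1, Retn and Adipoq were not called without the tail-vein lesions (adjusted p = 0.0544, 0.0504 and 0.112). Proliferation genes had 3 higher (Hmgb2, Mcm7, Mcm5) and 2 lower (Spag5 at -3.04 and Tk1 at -0.49) of 17 (29.4% called). Ribosomal protein genes had 1 higher and 2 lower of 9 (33.3%), and genes of invasion and epithelial-mesenchymal transition 4 and 1 of 15 (33.3%). Among the last were both E-cadherin and N-cadherin (Cdh2, 1.20 and 1.23 in its 2 clones, the second with adjusted p = 0.0527), higher in the same lesions, together with S100a4 (0.69) and Mmp2 (0.75), while Mmp3 (-0.40) was lower, a call that was lost without the tail-vein lesions (adjusted p = 0.0798).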

How the data were processed

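Lung metastases and primary mammary tumors were profiled on 2-colour spotted cDNA arrays, Cy5 for the sample and Cy3 for 1 preparation of reference RNA, pooled from ovary and 7 FVB tissues (lactating mammary gland, lung, pancreas, thymus, kidney, spleen and liver). The authors scanned the slides, scored spot quality, normalized each array and deposited log2 ratios. Their filter on spot quality was not repeated, so every clone was tested. No 8.7k array was used. Of 15360 clones 11860 carried 1 gene symbol (7766 genes), 705 several and 2795 none.

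Samples were grouped by their titles. A clone needed values on 50% or more of each group's arrays (2 at the fewest) to be fitted in limma 3.58.1 (R 4.3.3, functions lmFit and eBayes). Calls were made at a Benjamini-Hochberg adjusted p under 0.05. The contrasts were WntM against NeuM, WntT against NeuT and the difference of these contrasts. A fold is a ratio of geometric means. Lists were described by counts and medians of clones averaged per gene. The members, lists and naming rule were chosen with earlier results of these data known. Named were a list drawn from the study's text and supplements, the 10 largest positive and negative differences in tumors and in metastases, the 5 largest of each sign in the difference of contrasts, the 3 list members of smallest adjusted p, and further list members and lung genes chosen after their values were seen. For a gene of several clones the value is their average unless clones are given. Fits were tested on simulated data. Alternatives were other normalizations, filters, fits and permutation tests, and leaving out arrays. Added after seeing the data were the lung mean as a covariate, single WntM arrays left out, arrays of wide spread left out of all but the clone counts, and other fits of the difference of contrasts. Promoters came from RefSeq (GRCm38.p6).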

Additional observations from a re-analysis of the deposited data

Results flagged for a closer look

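Single arrays stood far from the rest of their group in 21 of 228 tests (114 genes in 2 groups; 9.21%), by Dixon's test of the gap to the nearest other array over the range of the group. Chance alone gives about 1 in 20. The means of the 25 lists gave none in 50 tests. WntM array 50 was low for Car6 (-7.73), Actn3 (-6.59), Slc25a34 (-4.02), Eno3 (-3.79) and Fzd9 (-1.13), array 52 for 1300017J02Rik (-9.70) and Gata2 (-6.51), and array 19 for Gfra1 (-4.68), Iigp1 (-3.99) and Oas1a (-1.70). These 3 arrays have the widest spread of log2 ratios in the group. WntM 42 was low for Cdh2 (-0.75) and WntM 18 for Tie1 (-0.91).

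In NeuM, tail-vein lesion 56E was high for Erbb3 (2.07), H2-Eb1 (0.72) and Fzd1 (0.0181) and low for Npnt (1.59) and Cd74 (-1.23). Tail-vein lesion 53E was low for Ripor2 (-8.38). Lesion 61, which had the highest mean of lung genes in its group, was high for Cdkl2 (0.61) and Cyp2f2 (-1.39), and lesion 56 was high for Dkk3 (-0.32).

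For 7 named genes the contrast of oncogenes differed between metastases and tumors (limma, difference of contrasts). It was higher in the metastases for Cdkl2 (3.84), Scgb3a2 (3.67), H2aj (2.78), Mettl7a1 (1.69) and Alas1 (1.68), and lower for Cactin (-1.06) and Srprb (-1.76).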

How the results depend on the processing

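Counts of clones between WntM and NeuM were 1604 higher and 1716 lower. Leaving out each of the 15 arrays in turn gave 1311 to 1644 higher and 1374 to 1726 lower. Without both tail-vein lesions the counts fell to 1095 higher and 1239 lower. Of the other settings, these counts moved by over 1.5 times to 872 and 947 with clones averaged per gene (fewer features) and to 692 and 995 with the lung covariate. They also moved to 967 and 1024 in a permutation t-test at the threshold of the study's methods (1785 and 1896 after Benjamini-Hochberg). That test used 100 regroupings, fewer than the study did, and pooled the permuted statistics over clones. Clones higher in both metastases and tumors (1349) and lower in both (1513) ranged over 1124 to 1392 and 1236 to 1527 with single arrays left out. They were 983 and 1136 without the tail-vein lesions, 384 and 442 for tumor differences of at least 2-fold (fewer clones) and 625 and 911 with the lung covariate. The difference of contrasts (16 clones) gave 12 to 29 with single arrays left out, 29 without NeuM lesion 61 and 25 without WntM lesion 18, 25 with quantile normalization, 10 without the tail-vein lesions and 9 without arrays of SD over 1.3. The cause was not tested. The share of distance between WntM and NeuM was 25.6% to 51.9% in its alternatives, each with an exact p of 0.0035 or less.

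List medians moved by more than the spread of their array means with quantile normalization for Wnt targets (0.81), Wnt inhibitors (0.35), luminal (0.38), milk (0.14), ribosomal (0.17) and the list drawn from the study (1.43). Setting ratios beyond 0.01 or 100 missing moved Wnt transducers (0.24), leaving out the tail-vein lesions moved milk (-0.53), lung epithelium (0.64) and macrophage (-0.069), and leaving out arrays of SD over 1.3 moved Wnt targets (0.89). The luminal, milk and ribosomal medians changed sign with quantile normalization, and the luminal (0.0007), macrophage, lymphocyte (-0.11) and muscle (-0.12) medians without the tail-vein lesions.

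With the number in the title as a replicate block over the 15 arrays (53 with 53E, 56 with 56E), 1084 clones were higher and 1243 lower, and the difference of contrasts gave 19 with a block over the 50 arrays. Same-numbered metastases and tumors did not deviate together throughout (r of -0.09 to 0.28 over 10 pairs, 5 above 0.1, 5 with their best match in their own number). The main fits did not pair them. In the block over the 15 arrays, where only 53 with 53E and 56 with 56E shared a number, the consensus correlation was 0.5552. It rests on those pairs alone. Their deviations from the mean of the 5 NeuM arrays had r of -0.25 (53E with 53) and -0.06 (56E with 56). A mean over so few arrays pulls such r below 0, so these values do not settle whether same-numbered lesions are alike. The main fits took these lesions as separate. If lesions of 1 number share a source, the main p-values are too small, and the labels do not settle this. The block ended the calls of Cd74, Cd79b, Fzd9, Grb7, Rps12, Scgb3a2 and Shc1. Of 114 genes named by the rule 98 were called, and no called gene changed sign. The lung covariate ended 26 of these calls. Under all other settings 88 of the 114 kept their side of the threshold.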
